A study of Mus musculus with 4 samples.

Results

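The genes described here encode the proteins of the cytosolic ribosome. They were chosen by symbol alone: Rpl or Rps followed by a number with the letters a, x, y or l, the 3 acidic stalk names Rplp0 to Rplp2, and Rpsa, without pseudogene names and without the Rps6k kinases. Of the 32285 gene identifiers in the count matrices, 83 symbols met this rule and 81 held at least 50 UMIs (unique molecular identifiers, each counting 1 captured RNA molecule) over the 4 matrices. The 81 members comprise 49 proteins of the large subunit and 32 of the small subunit, spread over 19 chromosomes. Just inside the minimum was Rpl39l with 242 UMIs, and just outside it were Rpl3l with 14 and Rpl10l with 1. Fau, Rack1, Rpl36al and Rps27rt encode ribosomal proteins or copies of them under names that the rule does not match, and they are not members.

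Each of the 4 groups is a single library of brain cells selected with CD11b microbeads. CD11b is an integrin of myeloid cells. The groups cross genotype, IL6 WT (+/+) or IL6 KO (-/-), with treatment: sham surgery, or cerebrovascular injury made by pulsed ultrasound over a thinned skull window with microspheres injected intravenously. Mice were 8 to 12 weeks old at surgery, and a 4 mm punch of the injured or corresponding control region was dissociated at day 6. The labels do not state how many animals went into a library, which Il6 exon was targeted or which of the mild and severe protocols was used, and the extraction text calls the controls uninjured where the sample characteristic says sham. With 1 library per group a pair of groups has no replicate, and no p-value is given between groups. Every difference between libraries below describes those libraries, and its 95% interval covers counting error only.

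A ribosome joins a large subunit, which forms peptide bonds, to a small subunit, which reads the messenger RNA, and nearly every ribosomal protein is present once per particle. The genes are transcribed at high and matched rates, and their messages begin with a pyrimidine-rich stretch, the terminal oligopyrimidine or TOP element, through which mTOR signalling and LARP1 set their translation and stability. In macrophages and microglia, the resident macrophages of the brain, growth and activation are commonly accompanied by altered ribosome production. RNA counts such as these show neither protein nor translation.

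After filtering, 957, 2883, 1362 and 2549 cells were analysed, with values here and below in the order wild type sham, wild type injured, knockout-labelled sham, knockout-labelled injured. Median depths were 7638 to 10016 UMIs per cell. Il6 did not separate the genotypes as labelled: it held 99 and 164 UMIs in the sham and injured wild-type libraries, against 324 and 542 in the sham and injured libraries labelled IL6 KO. Counts of 3′ ends do not check a deletion elsewhere in the gene, so these 2 libraries are called knockout-labelled throughout. Itgam, which encodes CD11b, had a UMI in 75% to 80.5% of cells. The 2 sham libraries shared 19 cell barcodes, the shallower copy of each holding 1.56% to 2.20% of the UMIs of the deeper, and other pairs of libraries shared 0 to 2. Cells were assigned to a class by their own detected markers, none of which is a ribosomal protein gene. The gates held 700, 2056, 1098 and 2165 microglia, 51, 47, 45 and 36 border macrophages, 28, 75, 40 and 123 endothelial cells, and 12, 126, 8 and 24 monocyte-derived macrophages.

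The promoters of 61 members are in the RefSeq table for GRCm38.p6. On the gene's own strand, an unbroken run of at least 8 C or T bases lay within 20 bases of the annotated start in 31 of the 72 member windows (43.1%), compared with 16% of all 32851 windows in the table. The following windows with a run are shown for members that results below turn on, each 5′ to 3′ with the run in capitals. For Rpl7a and Rpl34 the run goes on past the end of the window, to 21 and 20 bases.
Rpl15: ggagaaagCCTTCTTCCTTTCCTCTg
Rpl19: ggcttgggCTCTCCCCTTCgcagata
Rpl7a: ccccacaaTTCCCTCTTCTTTCTTTC
Rpl35: cggccccgCCCTTTCCTCTTTCTCTC
Rplp2: cgtcagcgTCTTCCTTTCgccgccgg
Rpl34: ctcacccgCCCCTTCCTTTTCCTCTT
Rps27: cgctttcgCTCCTTTCCggcggtgac
Rps27l: cctctccaCTCCTCCCCgccgcctct
The Rpl15 window is chr14:18270973-18270998 on the minus strand, that of Rpl19 chr11:98026905-98026930 on the plus strand and that of Rpl7a chr2:26910785-26910810 on the plus strand. The Rpl35 window is chr2:39005121-39005146 on the minus strand, Rplp2 chr7:141447638-141447663 on the plus strand and Rpl34 chr3:130730337-130730362 on the minus strand. The windows of the paralogs Rps27 and Rps27l are chr3:90213633-90213658 on the minus strand and chr9:66946066-66946091 on the plus strand. The injury log2 ratios of these genes in microglia lay on both sides of 0, with Rpl34 near it at -0.07 in wild type and -0.10 under the knockout label. Rpl10a, the member with the largest ratio, has a window without a run. The members with a run had a median log2 ratio of 0.27 in wild-type microglia and 0.27 in knockout-labelled microglia (30 members), and those with a window but no run had 0.31 and 0.37 (31 members).

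Ribosomal protein RNA took up more of the microglial transcriptome in both injured libraries than in both sham libraries. In microglia-gated cells the members together held 11.68% of UMIs in wild-type sham cells (95% Clopper-Pearson interval 11.66 to 11.71) and 14.10% in injured wild-type cells (14.09 to 14.12). It was 11.46% in the knockout-labelled sham library (11.44 to 11.48) and 14.47% in injured cells with the knockout label (14.45 to 14.48). Injured exceeded sham by 2.42 percentage points in wild type and by 3.01 points in the knockout-labelled pair, whereas the knockout-labelled library lay 0.23 points below wild type after sham and 0.36 points above it after injury. The spread of single cells was wider than these differences: the quartiles were 8.50% and 14.6% in wild-type sham, 12.0% and 17.0% in injured wild type, 8.98% and 13.8% in knockout-labelled sham and 12.0% and 17.2% in injured knockout-labelled cells. A median cell had a UMI for 79 of the 81 members in each of the 4 libraries.

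**Figure D1:**
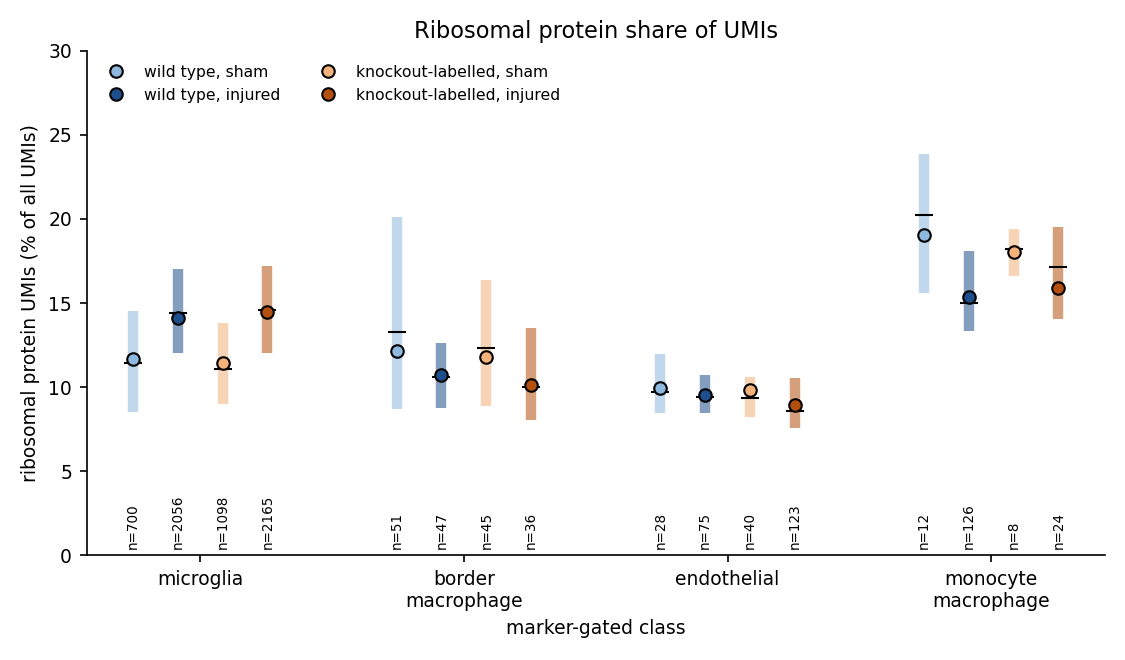
Ribosomal protein UMIs as a percentage of all UMIs (vertical axis) in 4 marker-gated classes (horizontal axis), for the 4 libraries. Circles are shares of the summed UMIs, bars run from the lower to the upper quartile of single cells, black ticks are cell medians and n is the number of cells. In microglia both injured libraries (14.1% and 14.5%) lie above both sham libraries (11.7% and 11.5%), and in border macrophages, endothelial cells and monocyte-derived macrophages the injured libraries lie lower.

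Other measures moved with this share. Malat1, an abundant nuclear RNA, made up 1.98% and 1.76% of the UMIs of a median microglial cell in the wild-type and knockout-labelled sham libraries, and 0.69% and 0.73% in the injured libraries. Within each library the ribosomal protein share and the Malat1 share ran in opposite directions over cells (Spearman coefficient -0.71 over 700 cells in wild-type sham, -0.19 over 2056 in injured wild type, -0.57 over 1098 in knockout-labelled sham and -0.48 over 2165 in injured knockout-labelled cells). Both shares have the same denominator. When the cells of a library were divided into 4 equal groups by Malat1 share, the sham group with the least Malat1 had a median ribosomal protein share of 15.7% in wild type and 14.5% in the knockout-labelled library, and 6.85% and 8.69% in the group with the most. Among injured cells the same groups had 14.8% and 12.8% in wild type and 16.8% and 11.7% in the knockout-labelled library. The share hardly followed depth, with Spearman coefficients with UMIs per cell between -0.15 and 0.09 in the 4 libraries. The part of nuclear RNA in the difference was not tested. With mitochondrial and Malat1 UMIs removed from the total the injured excess was 2.28 and 3.08 points.

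The injured microglia-gated cells also carried more monocyte marker RNA. The 8 monocyte and macrophage markers summed to 493 and 367 CPM (UMIs per 1000000 UMIs of the class) in the wild-type and knockout-labelled sham libraries, where 7 had a UMI and Ly6c2 had none, and to 5454 and 1775 CPM in the injured libraries, where all 8 had a UMI. The 8 microglial markers were all detected and summed to 9352 and 10553 CPM in the sham libraries and 5170 and 6945 CPM in the injured ones. The 18 immediate early and heat shock genes that respond to tissue dissociation summed to 27906 and 28256 CPM in sham and 17006 and 20136 CPM in injured microglia. Requiring 4 markers and a 2-fold margin for the microglial gate gave an injured excess of 2.82 points in wild type. The part of the dissociation genes in the difference was not tested.

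Within injured microglia the share did not rise with activation markers. Cells with at least 3 of 8 disease-associated genes, such as Spp1, Lpl and Cst7, had a share of 13.9% in wild type (1649 cells) and 14.1% in the knockout-labelled library (1046 cells), and the other cells had 15.7% (407 cells) and 15.1% (1119 cells). Cells with at least 3 of 8 interferon-response genes had 13.5% (556 cells) and 14.2% (486 cells), and those with fewer had 14.4% and 14.6%. Cycling cells, with at least 3 of 8 mitotic genes such as Mki67 and Top2a, had the lowest share of the 3 states, 12.0% (99 cells) and 13.1% (51 cells). These cells were also deep, with medians of 19289 and 15788 UMIs. The cut at 3 genes divides a range: 635 of 2056 injured wild-type cells and 980 of 2165 injured knockout-labelled cells had 2 or 3 disease-associated genes. Microglia in none of the 3 states had 11.8% and 11.5% in the wild-type and knockout-labelled sham libraries (655 and 1038 cells) and 15.6% and 15.1% in the injured ones (370 and 941 cells), a wider gap than over all microglia. Their median depths were 8141 and 8237.5 UMIs in sham and 5454 and 6900 after injury, so this gap compares cells of unlike depth. Injured wild-type cells with and without the disease-associated genes also differed in depth, with medians of 11325 and 5500 UMIs.

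In the other gated classes with enough cells the share was lower after injury. Border macrophages, the long-lived macrophages of meninges and perivascular spaces, had 12.1% in wild-type sham and 10.7% in injured wild type, and 11.8% and 10.1% in the knockout-labelled pair, so that both injured libraries lay below both sham libraries. Endothelial cells had 9.95% and 9.53% in wild type and 9.85% and 8.93% in the knockout-labelled pair, in the same order. The Malat1 share of these classes was also lower after injury, with cell medians of 1.89% and 1.42% in wild-type border macrophages and 3.35% and 2.08% in wild-type endothelial cells. Monocyte-derived macrophages had higher shares than microglia in every library, at 19.1%, 15.3%, 18.0% and 15.9%, although the sham values rest on 12 and 8 cells. Neutrophils, whose RNA content is low, had 4.43% in wild-type sham (11 cells), 5.77% in injured wild type (31 cells) and 3.18% in injured knockout-labelled cells (6 cells), and 8 dendritic cells of the injured wild-type library had 21.9%. The injured wild-type library also held 522 ungated cells with a median of 14914 UMIs, of which 115 had most markers from the monocyte list and a share of 14.7%. Another 262 had most markers from the microglial list, with a share of 12.6% against 12.3% in 40 such cells of the wild-type sham library, a smaller gap than between gated microglia. Under the knockout label such cells had 11.8% after sham (55 cells) and 14.7% after injury (64 cells). Ungated cells with most markers from the border macrophage list were higher after injury, unlike gated border macrophages. They had 10.4% and 11.8% in wild type (13 and 59 cells) and 12.5% and 14.7% under the knockout label (7 and 16 cells).

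The microglial members did not move in step. Between wild-type sham and injured microglia, 11 of the 80 members that entered were at least 1.5-fold higher and 0 were at least 1.5-fold lower, where 8.84% and 30.9% of all 6253 genes were. The knockout-labelled pair had 20 members higher and 0 lower, where 5.69% and 12.4% of all 6131 genes were. The median log2 ratio of the members was 0.30 in wild type and 0.39 in the knockout-labelled pair, beside -0.31 and -0.22 over all genes. Rpl39l, at 2.21, 4.48, 0.66 and 2.62 CPM in the 4 libraries, was too low to enter. These ratios are relative to all UMIs of the class. Median-of-ratios scaling moved the median of all genes to 0.23 in wild type and 0.13 in the knockout-labelled pair, and the number of members called higher to 63 and 51 with 0 lower in both. The genes called over the whole table then split into 1726 higher and 441 lower in wild type, in place of 553 and 1932. For the knockout-labelled pair they split into 828 and 129, in place of 349 and 762.

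The member with the largest injury ratio was Rpl10a, which encodes a protein of the mobile L1 stalk beside the exit site for transfer RNA. It stood at 883, 1852, 860 and 1927 CPM in the 4 libraries. Both injured libraries were above both sham libraries, 2.10-fold in wild type (95% interval 2.04 to 2.15) and 2.24-fold in the knockout-labelled pair (2.19 to 2.29). Of the members that entered, Rpl10a alone passed a 2-fold threshold in either pair. The same direction held in border macrophages, where it stood at 752, 980, 652 and 843 CPM, and in endothelial cells, at 585, 738, 514 and 705 CPM, with narrower ratios of 1.30 and 1.26 in wild type.

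Rpl19, a large-subunit protein that also forms a bridge to the small subunit, stood at 1646, 2928, 1598 and 3114 CPM. Its ratios were 1.78 (1.75 to 1.81) and 1.95 (1.92 to 1.98). Rpl15, a core protein of the large subunit, stood at 1016, 1733, 978 and 1775 CPM, with ratios of 1.71 (1.67 to 1.75) and 1.82 (1.78 to 1.86). For both genes the 2 libraries of 1 treatment differed by far less than the treatments did. Rpl7a, another large-subunit protein, stood at 828, 1398, 841 and 1454 CPM. Of the small subunit, Rpsa, also known as the laminin receptor precursor, stood at 1144, 1876, 1113 and 2008 CPM. Rps2, Rpl24, Rpl32 and Rplp0, the base of the acidic stalk, were also among the 10 members called higher in both pairs, with wild-type ratios between 1.53 and 1.56 and knockout-labelled ratios between 1.58 and 1.78. The 10 have coding lengths from 405 to 951 bases.

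Over all members, both injured libraries were above both sham libraries for 57 of 81 and below them for 11, where 22.3% and 61.3% of all genes were. The 11 were Rplp1, Rplp2, Rpl34, Rpl35a, Rpl37, Rpl37a, Rpl39, Rps15, Rps21, Rps27 and Rps29, with coding lengths from 153 to 435 bases. Relative to all UMIs the lowest was Rplp1, an acidic protein of the stalk that recruits translation factors, with 4876 and 4462 CPM in the sham libraries of wild type and knockout label and 3250 and 3150 CPM in the injured ones. Its wild-type ratio of 0.667 (0.658 to 0.675) lay at the 1.5-fold line, and it was not called. Its log2 ratios were -0.58 and -0.50, but 0.02 and -0.10 under median-of-ratios scaling. Rps29, a small zinc-binding protein, stood at 3915, 3191, 4371 and 3435 CPM, with log2 ratios of -0.29 and -0.35 that became 0.31 and 0.05 under that scaling. Rps27 stood at 1455, 1245, 1806 and 1304 CPM and Rps21 at 1748, 1556, 2018 and 1533 CPM, both small-subunit proteins. Under median-of-ratios scaling 80 of 80 members were above 0 in wild type and 78 in the knockout-labelled pair, so most of the lower values hold only relative to the total. The 2 still below 0 were Rplp1 and Rps27, at -0.10 and -0.07 in the knockout-labelled pair, and with TMM scaling Rps21 was there too, at -0.01. Scaling shifts all members of a pair nearly alike and leaves their order.

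**Figure D2:**
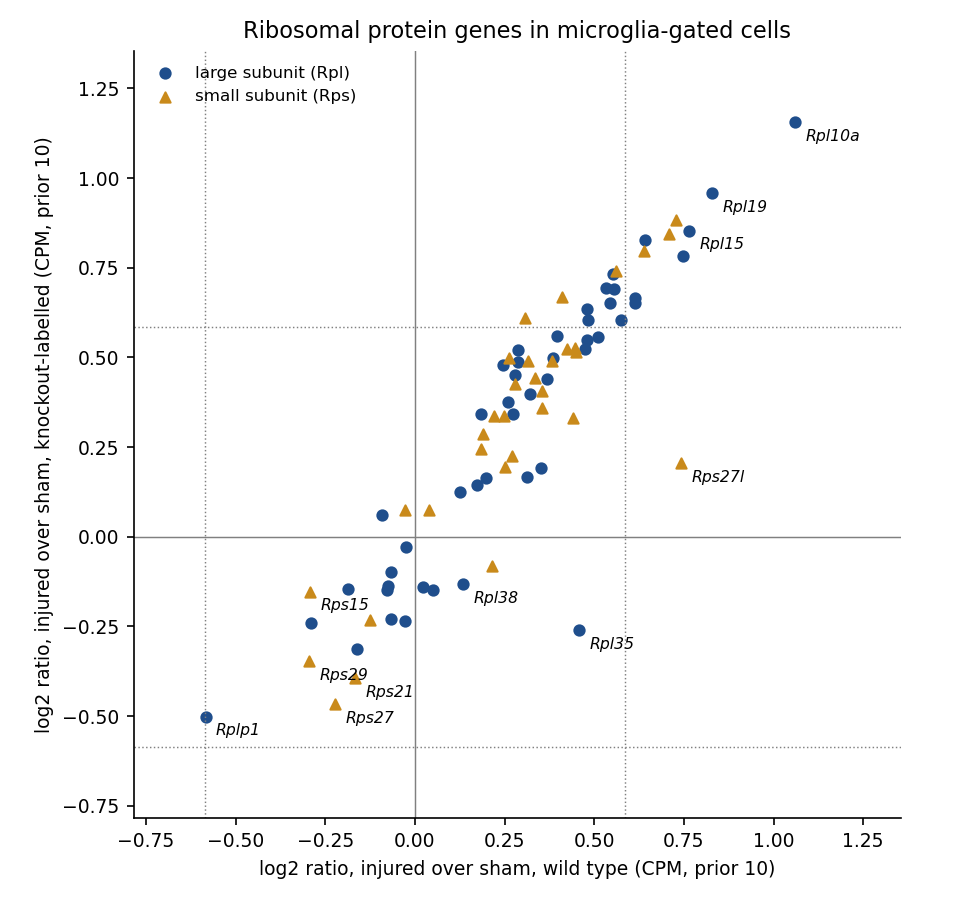
Log2 ratio of injured over sham in microglia-gated cells for the 80 members that entered, in the wild-type pair (horizontal axis) and the knockout-labelled pair (vertical axis), from CPM with a prior of 10 CPM. Circles are large-subunit and triangles small-subunit genes, and dotted lines mark 1.5-fold. Rpl10a lies farthest up in both pairs (1.06 and 1.16) and Rplp1 farthest down (-0.58 and -0.50, but 0.02 and -0.10 under median-of-ratios scaling), while Rpl35 and Rps27l lie away from the diagonal.

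A few members had unlike values in the 2 pairs. Rpl35, which sits at the exit of the peptide tunnel, stood at 479, 662, 721 and 601 CPM in microglia. Its log2 ratio was 0.46 in wild type and -0.26 in the knockout-labelled pair (0.13 under median-of-ratios scaling), and the 2 sham libraries differed 1.51-fold (1.45 to 1.57). The knockout-labelled sham library was also the highest for Rpl35 in border macrophages (536, 381, 792 and 352 CPM) and in endothelial cells (403, 373, 739 and 337 CPM). The other members of opposite sign in the 2 pairs were Rpl23a, Rpl36, Rpl36a, Rpl38, Rps23 and Rps28. Under median-of-ratios and TMM scaling these and Rpl35 were above 0 in both pairs, so the opposite signs hold only relative to the total. Rpl38, for example, was at 0.73 in wild type and 0.26 in the knockout-labelled pair under median-of-ratios scaling.

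Between genotypes few microglial genes of any kind were called, so 0 calls among 80 members do not set them apart. After injury 0 of 80 members were called higher and 0 lower in knockout-labelled against wild-type microglia, where 1.35% and 2.08% of 5424 genes were, and the members' median log2 ratio was 0.01. The highest were Rps6, the substrate of S6 kinase, at 1364 CPM in injured wild type and 1654 in injured knockout-labelled cells, and Rpl10, which joins the large subunit late in assembly, at 2202 and 2603 CPM. The lowest were Rps27l, Rpl31, at 343 and 285 CPM, and Rpl41, the shortest member, at 1560 and 1306 CPM. After sham 0 members were called higher and 0 lower, where 0.163% and 0.847% of 6139 genes were. The largest ratios there were those of Rpl35 and of Rps27, at 1455 CPM in wild type and 1806 in the knockout-labelled library, and the smallest were those of Rps15, at 1180 and 994 CPM, and Rpl23a, at 834 and 706 CPM.

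Of the paralogs, Rps27l, which is a p53-inducible relative of Rps27, was called higher in wild type alone: it stood at 114, 197, 123 and 143 CPM in microglia. Its wild-type ratio was 1.73 (1.61 to 1.86), while Rps27 had 0.86 (0.84 to 0.87). In microglia in none of the 3 states the log2 ratio of Rps27l in wild type was -0.12. Rps27l was higher in border macrophages, at 252, 222, 231 and 151 CPM, and in monocyte-derived macrophages, at 281, 298, 271 and 134 CPM, than in sham microglia of either library. In the injured knockout-labelled library, however, monocyte-derived macrophages had 134 CPM (32 UMIs) and microglia 143. Rpl22l1 stood at 262, 337, 265 and 304 CPM and its relative Rpl22 at 793, 911, 753 and 845 CPM, so that neither passed 1.5-fold in a pair. Rpl39l, a copy of Rpl39 best known from testis, held 17, 109, 7 and 57 UMIs in microglia. Its ratio was 2.03 in wild type (1.21 to 3.61) and 3.96 in the knockout-labelled pair (1.80 to 10.3), at levels under 5 CPM. Rpl7l1 stood at 67.0, 63.0, 75.2 and 67.5 CPM, whereas Rpl7 stood at 1142, 1680, 1113 and 1856 CPM. Rpl3 stood at 1163, 1689, 1168 and 1894 CPM and the X-linked Rps4x at 1909, 2541, 1824 and 2905 CPM. Reads from near-identical processed copies may be counted with or lost from a parent gene, and the labels do not say how the counting treated them.

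The 10 members with the most UMIs over all barcodes, among them Rplp1, Rps29, Rpl13, Rps24, Rps9, Rpl23, Rps12, Rpl19 and Rpl27a, held 21.3% of the members' UMIs. In microglia the members' levels ran from 2.21 to 4876 CPM in wild-type sham with a median of 1408, and from 4.48 to 3250 CPM in injured wild type with a median of 1710. In the knockout-labelled pair the medians were 1369 and 1775 CPM.

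Coding length ordered the members' injury ratios in every class compared. In microglia the Spearman coefficient between coding length and the log2 ratio, over the 80 members, was 0.59 in wild type and 0.78 in the knockout-labelled pair. It was 0.79 and 0.83 in border macrophages and 0.76 and 0.91 in endothelial cells. Members of at most 300 bases had median log2 ratios of -0.05 and -0.23 in wild-type and knockout-labelled microglia (10 members), those of 300 to 450 bases 0.18 and 0.14 (28 members), those of 450 to 600 bases 0.42 and 0.52 (19 members) and longer ones 0.41 and 0.56 (23 members). The same 4 steps were -0.50, -0.21, 0.06 and 0.17 in wild-type endothelial cells and -0.82, -0.40, 0.08 and 0.26 in knockout-labelled ones. The points are genes of 4 shared libraries and are not independent. With annotated transcript length in place of coding length the microglial coefficients were 0.36 and 0.47. Between the 2 sham libraries the coefficient was 0.02 in microglia, -0.21 in border macrophages and -0.34 in endothelial cells, and between the 2 injured libraries it was 0.75, 0.34 and 0.51. Members of at most 300 bases were nonetheless higher in the knockout-labelled sham library, with median log2 ratios of 0.16, 0.13 and 0.17 in these classes. The longer steps had -0.10, -0.05 and -0.02 in microglia. The injury ratios of a class and the ratio between injured libraries share libraries, so these values stand side by side only.

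**Figure D3:**
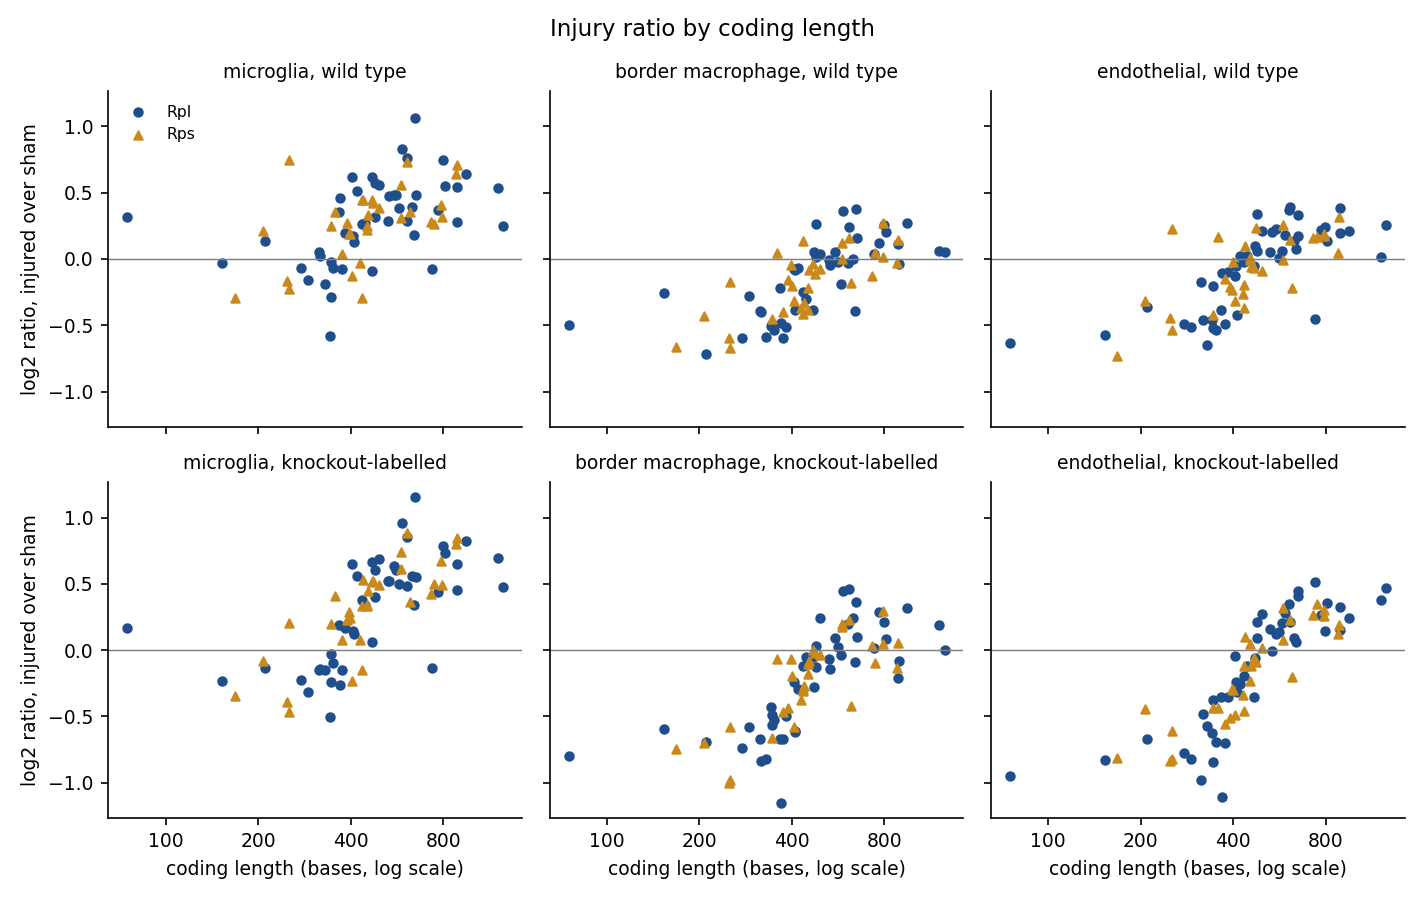
Log2 ratio of injured over sham (vertical axis) against coding length in bases on a log scale (horizontal axis) for the 80 members, in microglia, border macrophages and endothelial cells of the wild-type pair (upper row) and the knockout-labelled pair (lower row). Circles are Rpl and triangles Rps genes. Short members lie lower than long members in all 6 panels, with Spearman coefficients from 0.59 to 0.91.

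In the injury comparisons this order was weak or absent among mitochondrial ribosomal protein genes. Among all other genes it ran the opposite way in microglia and was weak or absent in border macrophages and endothelial cells. Mitochondrial ribosomal protein genes had coefficients of -0.19 and 0.03 in wild-type and knockout-labelled microglia (67 and 65 genes), and all other genes had -0.51 and -0.39. In border macrophages the mitochondrial ribosomal protein genes had 0.08 and 0.23 and the other genes -0.06 and 0.05. In endothelial cells these values were 0.11 and 0.17, and -0.19 and -0.08. Over the same 4 steps of coding length, the medians of the other genes were nonetheless -0.17, -0.04, 0.02 and 0.03 in knockout-labelled border macrophages and -0.22, -0.03, 0.08 and 0.04 in endothelial cells of that pair, so that short genes of other kinds were lower there too. In microglia those medians were 0.29, 0.22, 0.12 and -0.26 in wild type and 0.01, 0.06, 0.01 and -0.19 under the knockout label. Short genes of other kinds were not lower than long ones in microglia. The wild-type medians were -0.16, -0.03, 0.04 and -0.05 in border macrophages and 0.03, 0.08, 0.14 and -0.01 in endothelial cells. Between the injured libraries, however, microglial coefficients were positive in all sets, at 0.36 over 5270 other genes and 0.37 over 66 mitochondrial ribosomal protein genes beside 0.75 for the members. Between the sham libraries the microglial coefficient was -0.46 over 5952 other genes, so length ordered their ratios without injury too. It was 0.12 over 63 mitochondrial ribosomal protein genes there, beside 0.02 for the members. Whether the members differ in this from other genes of like length was not tested.

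Dividing the members at their median coding length of 453 bases gave a ratio of short-member to long-member UMIs for each library. In microglia it was 1.09, 0.84, 1.10 and 0.75. In border macrophages it was 1.26, 0.96, 1.30 and 0.89, in endothelial cells 1.10, 0.84, 1.18 and 0.76, and in monocyte-derived macrophages 1.11, 0.85, 1.09 and 0.76. Both injured libraries lay below both sham libraries in 6 of the 6 sets of cells that had at least 5 cells in all 4 libraries, which include astrocytes and ungated cells, and injured knockout-labelled lay below injured wild type in each. Neutrophils, with 4 cells in knockout-labelled sham, are not among the 6. Their ratio was not lower after injury in wild type, at 1.04 in sham (11 cells) and 1.06 in injured cells (31 cells). In injured knockout-labelled neutrophils it was 0.91 (6 cells). The middle 50% of single microglia did not overlap between injured and sham libraries, with quartiles of 1.02 and 1.16 in wild-type sham against 0.79 and 0.88 in injured wild type, and of 1.03 and 1.17 against 0.71 and 0.79 in the knockout-labelled pair. The ratio was nearly the same across states of 1 library, from 0.83 to 0.84 in injured wild-type microglia with and without disease-associated, interferon or cycling genes, and from 0.74 to 0.75 in injured microglia with the knockout label. With 1 library per group, injury and any other difference between the libraries cannot be told apart for this ratio.

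**Figure D4:**
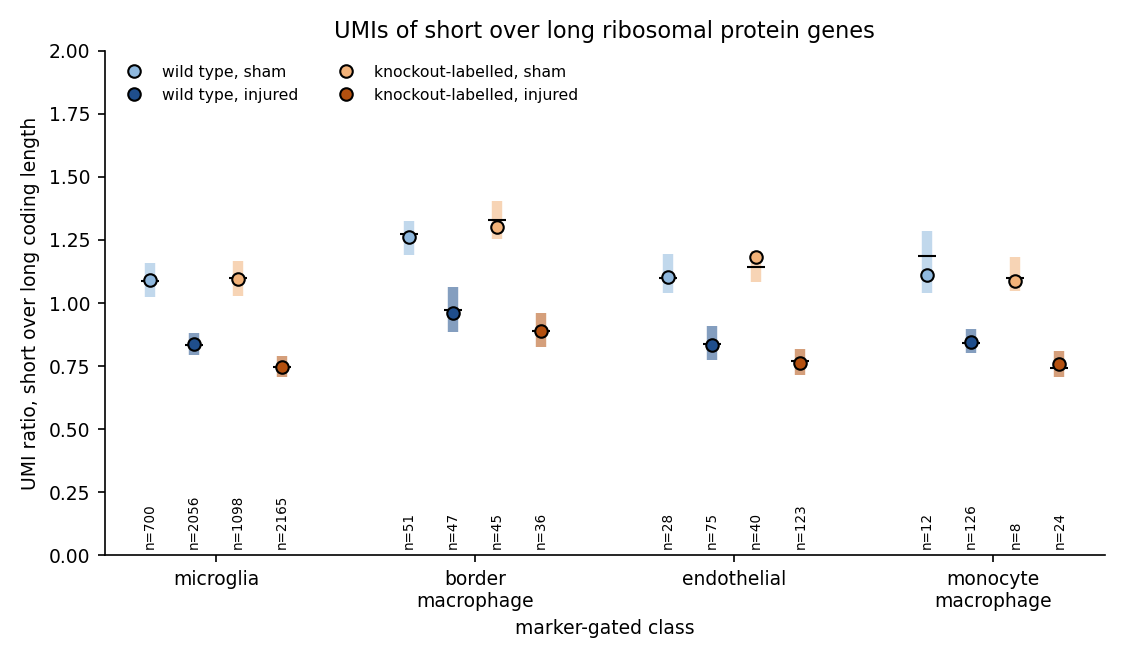
UMIs of members with a coding length up to the median of 453 bases over UMIs of longer members (vertical axis), by marker-gated class (horizontal axis) and library. Circles are ratios of summed UMIs, bars run from the lower to the upper quartile of single cells, black ticks are cell medians and n is the number of cells. In microglia the sham libraries lie at 1.09 and 1.10 and the injured libraries at 0.84 and 0.75, and the same order of injured below sham holds in the other 3 classes.

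In border macrophages the members called were all short. There 7 of 80 members were called lower and 0 higher in wild type, where 17.2% and 14.2% of all genes were, and the knockout-labelled pair had 17 lower and 0 higher, where 15% and 15.2% were. The number called lower was thus below the share of all genes in wild type and not far above it in the knockout-labelled pair. The 7 of wild type, Rpl31, Rpl35a, Rpl37a, Rpl38, Rps21, Rps27 and Rps29, were among the 17, and no called member had a coding length over 411 bases. Rps29 stood at 5658, 3561, 6748 and 4019 CPM, and Rpl38, a protein linked to translation of Hox messages, at 1440, 874, 1588 and 979 CPM. In endothelial cells 3 members were lower in wild type and 15 in the knockout-labelled pair, where 15.5% and 9.26% of all genes were. In both pairs 0 were higher, where 14% and 9.12% of all genes were. Both lists held Rpl41 and Rps29, the latter at 2505, 1502, 2634 and 1491 CPM. Between genotypes 0 members were called in border macrophages, where 15.6% of all genes were higher and 12.4% lower after injury, and 12% and 13.7% after sham. In endothelial cells 0 were called after injury, where 7.04% were higher and 6.68% lower, and 1 after sham, Rpl35, where 14.8% and 15% were. These classes have 28 to 123 cells per library, so a short-member ratio carries a wider counting interval, as for Rps29 in wild-type endothelial cells (0.60, 0.53 to 0.67).

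Classes could be compared within libraries, since each library holds several. Endothelial cells had lower levels of most members than microglia: edgeR's quasi-likelihood test on summed counts, with the library as a block and Benjamini-Hochberg adjustment over 11142 genes, called 62 of 80 members lower and 0 higher at an adjusted p of 0.05, where 28% and 21.2% of all genes were. Without adjustment 68 were lower and 0 higher at p of 0.05, and DESeq2 called 64 lower and 0 higher, where 2667 and 2237 of all genes were. Rps28 was the lowest, with 766, 613, 708 and 517 CPM in endothelial cells against 1291, 1499, 1520 and 1437 CPM in microglia (log2 fold change -1.63, edgeR adjusted p 0.000116). Rpl10 followed, with 1033, 1091, 925 and 963 CPM against 1938, 2202, 2053 and 2603 CPM (-1.60, edgeR adjusted p 0.000116). Neither gene overlapped between the classes. The smallest called differences were those of Rps15 (-0.65) and Rps20 (-0.67). Rps27l and Rpl38 were the 2 members with positive fold changes in endothelial cells, at 0.19 and 0.31, and neither passed the test. The count fell to 40 of 80 without the injured wild-type library, where 2855 of 11374 genes were lower. It fell to 25 of 80 without the injured knockout-labelled one, where 2402 of 11244 were.

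Border macrophages differed less from microglia. The same edgeR test called 3 of 81 members lower and 0 higher among 10751 genes, where 9.93% and 9.39% of all genes were, and without adjustment 20 were lower and 1 higher at p of 0.05. DESeq2 also called 3 lower and 0 higher, where 856 and 946 of all genes were. The edgeR calls included Rpl10a (log2 fold change -0.78, adjusted p 0.0205) and Rpl4 (-0.71, adjusted p 0.0169). Rpl4 stood at 449, 465, 431 and 431 CPM in border macrophages and at 612, 728, 593 and 831 CPM in microglia, without overlap. No call was left without the injured wild-type library or without the injured knockout-labelled one, where 1070 and 874 of all genes were lower. Monocyte-derived macrophages reached 20 cells in 2 libraries only and were not tested against microglia.

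Elongation factors and other genes with TOP messages followed the ribosomal proteins in microglia. Of 17 such genes 6 were called higher and 0 lower in wild type, and the knockout-labelled pair had 9 higher and 0 lower, where 8.84% and 5.69% of all genes were higher. The median log2 ratios were 0.47 and 0.64. Naca, which guards nascent chains at the ribosome, stood at 507, 871, 522 and 863 CPM. Eif3f, a subunit of initiation factor 3, stood at 275, 473, 294 and 533 CPM. Pabpc1, the cytoplasmic poly(A)-binding protein, had the lowest wild-type value, at 717 CPM in sham and 653 after injury. Rack1, a small-subunit protein outside the naming rule, was called higher in both pairs, at 900, 1425, 907 and 1526 CPM. Mitochondrial ribosomal protein genes had medians of 0.30 and 0.13, with 8 of 67 called higher and 1 lower in wild type, and 2 of 65 higher and 2 lower under the knockout label, beside the same shares of all genes. Mrpl54 stood at 29.6, 63.0, 33.2 and 57.2 CPM and Mrps6 at 106, 23.3, 60.7 and 27.1 CPM.

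Genes that build ribosomes or start translation had medians below 0 relative to all UMIs, but above the medians of all genes (-0.31 and -0.22). These list medians turned positive under median-of-ratios scaling. Of 28 and 29 biogenesis genes that entered, 1 was higher and 7 lower in wild type, and 0 and 2 under the knockout label. Their medians were -0.24 and -0.13. Beside these and the counts that follow, 8.84% and 5.69% of all genes were higher in the 2 pairs and 30.9% and 12.4% lower. Nop56, a core protein of box C/D particles, stood at 105, 44.3, 89.4 and 54.6 CPM, and Nhp2, of box H/ACA particles, at 35.9, 62.0, 39.1 and 55.2 CPM. Initiation factors had medians of -0.13 and -0.11, 2 of 30 being higher and 6 lower in wild type and 3 of 29 and 2 under the knockout label, with Eif4g2 at 415, 215, 386 and 239.5 CPM and Eif3i at 94.7, 156, 95.4 and 154 CPM. Among 12 genes of mTOR signalling and translation-control kinases the medians were -0.72 and -0.33, with 7 and 3 called lower and 1 higher in each pair. Eef2k, the kinase that restrains elongation, stood at 118.5, 47.8, 116.5 and 63.0 CPM, and Rictor, of mTOR complex 2, at 58.5, 21.4, 46.2 and 25.8 CPM. The gene called higher was Eif2ak2, the interferon-induced kinase PKR, at 35.9, 68.9, 30.4 and 75.3 CPM. The lists were not tested against each other. Under median-of-ratios scaling the medians became 1.03 and 1.03 for elongation and TOP genes, 0.78 and 0.43 for mitochondrial ribosomal proteins, 0.41 and 0.26 for initiation and 0.22 and 0.18 for biogenesis, so the last 2 changed sign, and they were -0.28 and -0.03 for mTOR control.

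**Figure D5:**
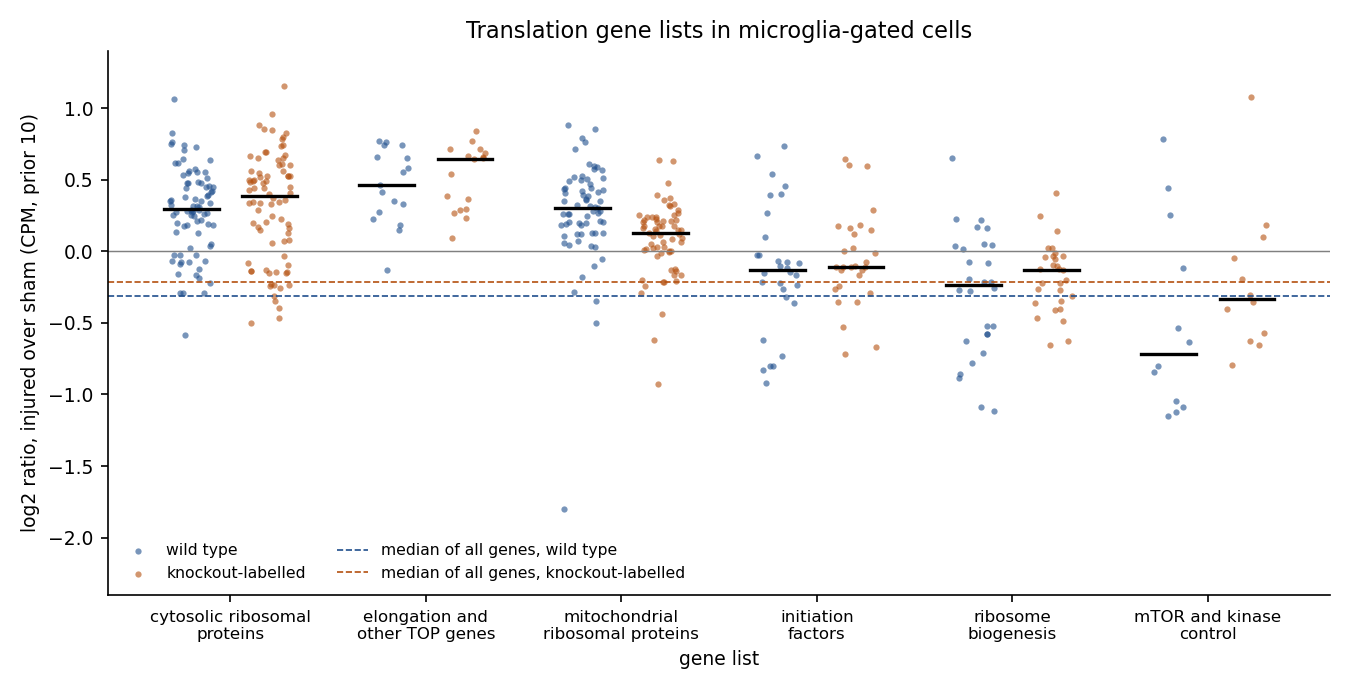
Log2 ratio of injured over sham in microglia-gated cells (vertical axis, CPM with a prior of 10) for 6 gene lists (horizontal axis), in the wild-type and knockout-labelled pairs. Each point is a gene, black bars are list medians and dashed lines the medians of all genes (-0.31 and -0.22). The ribosomal protein (0.30 and 0.39) and elongation and TOP (0.47 and 0.64) medians lie above 0, and those of initiation, biogenesis and mTOR control lie below it, of which initiation and biogenesis turn positive under median-of-ratios scaling.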

How the data were processed

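The deposited files hold raw UMI counts per gene and barcode. The submitters' processing notes name Cell Ranger 6.0.1 and the build mm10. The annotation release and the treatment of multiply mapped reads are not given in the sources used here. Libraries used the 10x 3′ v3 chemistry, per the labels' protocols. A barcode was kept if it had 500 genes or more, 1000 UMIs or more and no more than 10% of mitochondrial UMIs, and the highest Scrublet scores (scanpy 1.11.5) were left out at 0.8% per 1000 barcodes. A cell took the class with the largest share of its 8 markers detected, with at least 3 detected and at least 1.5 times the next of 11 classes. Other cells stayed ungated, and a gate is a range of marker detection, not a verified type.

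Counts were summed per class and library and given as CPM. Ratios carry exact conditional binomial 95% intervals and shares exact Clopper-Pearson ones. UMI counts of the same cells are not independent samples of an animal, so intervals cover counting error only. Log2 ratios use a prior of 10 CPM. A gene entered with at least 20 CPM in 1 of the 2 libraries and at least 50 UMIs over the matrices, and was called from a log2 ratio of 1.5-fold. Classes were compared with edgeR 4.0.16 (TMM, library as block, Benjamini-Hochberg adjustment, 0.05) where 3 libraries had at least 20 cells of both, and with DESeq2 1.42.0. A fit of injury over both genotypes, with 1 residual degree of freedom, was not run. The scripts were tested on simulated data. Coding lengths are those of the principal transcripts in GENCODE vM21 (GRCm38), in which all 81 members were found, and promoters are RefSeq windows from 250 bases before to 50 after a start.

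The members, gene lists and markers were chosen with earlier results of these data known. Named members are the 10 with the most UMIs, the 5 highest and 5 lowest per comparison at most, and the paralogs with their relatives. Other genes are at most the 2 highest and 2 lowest of a list. The remaining members called in both pairs, Rpl24, Rpl32, Rplp0, Rps2 and others named in counts, were named after their values were seen, as were the comparisons by coding length and by Malat1. Some genes that the rule names are not reported here.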

Additional observations from a re-analysis of the deposited data

Results flagged for a closer look

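The share of ribosomal protein UMIs moved in opposite directions after injury in microglia and in the border macrophage and endothelial classes. It was higher by 2.42 points in wild-type and 3.01 points in knockout-labelled microglia. In border macrophages the difference of injured minus sham was -1.41 points in wild type and -1.66 in the knockout-labelled pair, and in endothelial cells it was -0.43 and -0.92 points. Every pair of one class went one way and every pair of the other class the opposite way, but the difference between classes was not tested. The border macrophage values rest on 36 to 51 cells per library and on the gate. Ungated cells with most markers from the border macrophage list were higher after injury in both pairs. Ungated cells were higher after injury in both pairs, at 11.2% and 13.1% in wild type and 10.2% and 14.03% under the knockout label.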

How the results depend on the processing

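The injured excess of the microglial ribosomal protein share was 2.82 points in wild type with the stricter gate, 2.75 with cells thinned to 2000 UMIs, 2.35 without doublet removal, 2.82 with at most 5% mitochondrial UMIs, 2.28 without mitochondrial and Malat1 UMIs and 2.82 with cells weighted equally. In the knockout-labelled pair it was 3.05 when thinned, 3.11 with at most 5% mitochondrial UMIs, 3.08 without mitochondrial and Malat1 UMIs, 3.08 with cells weighted equally and 2.97 without barcodes shared by libraries. In cells in none of the 3 states it was 3.82 and 3.59. Leaving out shared barcodes and the state-free cells were alternatives chosen after seeing the data. Members called higher in wild type numbered 63 with median-of-ratios and 63 with TMM scaling, 1 at 2-fold, 36 at a lower fold threshold and 23 in cells in none of the 3 states, and 1 was called lower (against 0) at the lower fold threshold, with a prior of 1 CPM, without doublet removal, without mitochondrial and Malat1 UMIs and without shared barcodes. Of all 6253 genes 258 were higher and 578 lower at 2-fold, and 1029 and 3078 at the lower fold threshold. Over the whole table TMM scaling gave 1678 higher and 464 lower, and the state-free cells 153 and 576. In the last 4 settings with a member called lower, 1858 to 2422 genes were lower. In the knockout-labelled pair 51, 50, 1 and 47 were higher under the same scalings and folds, and 4 were lower at the lower fold threshold. Of all 6131 genes there, 163 were higher at 2-fold, and 663 were higher and 2254 lower at the lower fold threshold. With TMM scaling 799 genes were higher. Between genotypes 1 member was lower after injury at the lower fold threshold, where 285 of 5424 genes were. After sham 1 was higher with either scaling, at the lower fold threshold, with a prior of 1 CPM, with the stricter gate, without shared barcodes and in cells in none of the states. Over all genes 14 were higher with median-of-ratios scaling, 15 with TMM scaling and 107 of 6139 at the lower fold threshold. With a prior of 1 CPM 22 were, with the stricter gate 10, without shared barcodes 10 and in the state-free cells 13. The log2 ratio of Rps27l in wild type reversed to -0.12 in the state-free cells. The causes of these moves were not tested, beyond the lower or higher thresholds themselves.

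For border macrophages against microglia the lower calls numbered 17 without a filter on low counts, 1 with no replicate block and 5 with the stricter gate, and 0 to 2 with a library left out. Over all genes tested, 1450 of 19992, 879 of 10751 and 996 of 10153 were lower in the first 3 settings. With a library left out 816 to 1070 were. For endothelial cells the lower calls ranged from 25 to 66 with a library left out, where 2402 to 3087 of all genes were lower. They were 62 with no replicate block, where 3006 of 11142 genes were lower. The Spearman coefficient of coding length with the injury ratio stayed between 0.58 and 0.82 over 6 other settings. Thinning left out 78 to 122 microglia per library. Few UMIs limit the values of Rpl39l and of the classes with few cells. The scaled medians of the translation lists were added after seeing the data.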
